A study of Homo sapiens with 30 samples.

Results

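Interferon-stimulated and nucleic acid sensing genes were followed through the H1299 libraries as a set of 45 genes, of the 39359 in the count table. The members were taken by name: genes induced by interferon, sensors of foreign RNA or DNA, the IRF and STAT factors that act on them, and antigen presentation genes. The choice was made with earlier results of these data known. Shares and medians of the members beside those of all genes are therefore descriptions only. All 45 had a row, and 43 had enough reads to be tested. MX2 and RSAD2 did not, with at most 1 and 5 reads in any grouped library.

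The cells were H1299, a human lung carcinoma line that lacks p53, transfected with plasmids and sorted on the GFP that each plasmid also encodes, so that every library comes from transfected cells. Total RNA was sequenced at 6 h and 24 h after transfection. The control vector, pGFP, encodes GFP without p53. The other vectors add p53 from a tetracycline-response promoter: wild type p53, RW mutant p53 with a missense change in the DNA-binding domain, or p53 O6-meG, whose wild type sequence carries 1 O6-methylguanine in the template strand. In p53 TM (transcriptional mutagenesis) the same O6-meG vector was used in cells given 10 µM O6-benzylguanine (O6-bzG), which inactivates the repair enzyme AGT. No other group received O6-bzG, so the drug and mutagenesis cannot be told apart. No untransfected cells were sequenced, so what transfection, time in culture and sorting each contribute to the 24 h against 6 h change cannot be told apart. Groups held 3 libraries, except p53 O6-meG and p53 TM at 6 h with 2 each: the titles of the other 2 libraries name both groups, and these stayed unassigned.

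Library totals ran from 32302699 to 71950532 reads (median 44424643). Levels are CPM (reads of a gene scaled to the library's reads in all genes, after TMM normalization), and they are compared here between groups and not between genes. The p53 target CDKN1A was at 40.2 ± 5.2 CPM (SD, n = 3) with pGFP and 257 ± 11.2 CPM (n = 3) with wild type p53 at 6 h. The epithelial and mesenchymal markers KRT8, KRT18 and VIM summed to between 2370 and 4510 CPM over the 30 libraries. Of 6 leukocyte markers, 5 had a row and summed to between 3.60 and 10.3 CPM, mostly ITGAM, with PTPRC at no more than 0.0503 CPM. The 6 fibroblast and endothelial markers summed to between 0.591 and 3.54 CPM.

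Cells sense viral nucleic acid through proteins such as MDA5 and RIG-I (the products of IFIH1 and RIGI) for double-stranded RNA and cGAS for cytosolic DNA, which signals through STING. These pathways activate IRF3 and NF-kB and can switch on interferon genes. Secreted interferon acts through JAK kinases and a complex with STAT2 and IRF9 that binds the interferon-stimulated response element (ISRE), and this induces antiviral effectors such as ISG15, the IFIT family, MX1 and the OAS enzymes. Several of these genes, among them IRF5, PML, TAP1, ISG15, TLR3 and TRIM22, are also known targets of p53, which binds DNA directly.

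The promoters of 33 members were matched in the RefSeq table for GRCh38.p14, as windows of 300 bases around each start site. The ISRE core, taken as GAAA followed after 2 bases of any kind by another GAAA on either strand, stood in at least 1 window of 21 of the 33 genes, against 1255 of all 35116 windows (3.57%). A p53 half-site by its usual consensus stood in 3 of the 33 (IFIT3, ISG15 and RIGI), against 2329 of all 35116 windows (6.63%). A gene can have several windows, and the counts of members are of genes. IRF1 and the 4 windows of IRF5 held neither motif, and PML was not matched. The 250 bases before a start site are shown for 5 members named in the results below, 5′ to 3′ on the strand of the gene, with the ISRE core in capitals (overlapping cores run together). Of several windows of a gene, the one with the most ISRE cores was taken, then the one with its core farthest upstream. The windows shown therefore give no rate of the core. They lie at chr1:1013247-1013496 (ISG15, plus strand), chr10:89327747-89327996 (IFIT3, plus strand), chr1:78649581-78649830 (IFI44, plus strand), chr2:162318685-162318934 (IFIH1, minus strand) and chr6:32853705-32853954 (TAP1, minus strand).
ISG15: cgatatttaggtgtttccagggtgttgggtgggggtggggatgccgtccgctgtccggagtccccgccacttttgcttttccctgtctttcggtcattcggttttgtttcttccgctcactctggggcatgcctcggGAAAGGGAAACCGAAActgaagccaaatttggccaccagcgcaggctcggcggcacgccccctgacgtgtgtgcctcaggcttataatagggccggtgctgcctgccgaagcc
IFIT3: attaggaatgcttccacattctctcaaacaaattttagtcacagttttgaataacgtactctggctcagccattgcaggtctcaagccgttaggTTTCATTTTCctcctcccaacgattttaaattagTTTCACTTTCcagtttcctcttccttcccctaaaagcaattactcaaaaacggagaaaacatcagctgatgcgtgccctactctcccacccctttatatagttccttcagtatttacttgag
IFI44: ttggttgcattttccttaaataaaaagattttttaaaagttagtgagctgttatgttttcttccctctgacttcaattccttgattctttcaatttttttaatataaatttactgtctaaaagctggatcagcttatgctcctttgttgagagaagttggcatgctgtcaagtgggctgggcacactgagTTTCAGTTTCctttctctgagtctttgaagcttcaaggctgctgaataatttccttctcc
IFIH1: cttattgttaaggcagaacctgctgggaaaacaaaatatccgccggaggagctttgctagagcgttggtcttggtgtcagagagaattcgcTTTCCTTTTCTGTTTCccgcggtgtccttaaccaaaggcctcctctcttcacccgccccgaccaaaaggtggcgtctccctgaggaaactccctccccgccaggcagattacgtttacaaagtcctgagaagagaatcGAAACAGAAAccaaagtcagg
TAP1: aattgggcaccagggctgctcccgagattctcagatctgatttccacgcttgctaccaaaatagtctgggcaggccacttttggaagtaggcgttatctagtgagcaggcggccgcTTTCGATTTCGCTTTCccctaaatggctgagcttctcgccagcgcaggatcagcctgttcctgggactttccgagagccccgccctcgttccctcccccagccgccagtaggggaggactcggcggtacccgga

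IRF1 lies at chr5:132440440-132508719, IRF5 at chr7:128937457-128950038, TAP1 at chr6:32845209-32853816, PML at chr15:73994673-74047827, IFIH1 at chr2:162267074-162318684, CGAS at chr6:73413515-73452297 and STING1 at chr5:139475533-139482935 (whole genes, hg38, GENCODE v44).

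The first comparison asks what wild type p53 did to these genes at 6 h. Of the 43 members tested, 9 were higher than with pGFP and 0 were lower at an adjusted P under 0.05 (edgeR quasi-likelihood test, Benjamini-Hochberg over all 21335 genes tested), against 8.68% higher and 1.59% lower among all genes tested. The median log2 fold change of the members was 0.185, and that of all genes was 0.021. The transcription factor genes IRF1 and IRF5, the peptide transporter gene TAP1 and the nuclear body gene PML rose at least 2-fold. These were 4 of 43 members, against 4.39% of all genes tested.

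IRF1, a transcriptional activator of interferon and antigen presentation genes, measured 14.0, 13.3 and 13.4 CPM with pGFP at 6 h and 56.4, 55.6 and 53.5 CPM with wild type p53. The rise was 4.06-fold (log2 fold change 2.02 ± 0.15 SE, adjusted P = 5.4e-10 by edgeR). IRF5, a factor that acts downstream of Toll-like receptors, measured 0.693, 0.637 and 0.754 CPM with pGFP and 4.15, 4.19 and 5.13 CPM with wild type p53 (log2 fold change 2.69 ± 0.29 SE, adjusted P = 1.4e-07 by edgeR). All libraries of wild type p53 lay above all libraries of pGFP for both genes. Such separation of groups, here and below, is no separate support for a call. The share of all genes that separate in this way is not given.

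TAP1, a subunit of the transporter that loads peptides for HLA class I, measured 66.5, 67.8 and 64.3 CPM with pGFP and 142, 151 and 144 CPM with wild type p53, a rise of 2.20-fold. The groups did not overlap. TAP1 overlaps PSMB9 on the opposite strand, and whether reads were counted by strand is not given in the sources used here. PML, the scaffold of nuclear bodies, went from 21.4, 24.1 and 24.8 CPM to 45.4, 45.1 and 53.4 CPM, a rise of 2.05-fold. SP100, the other nuclear body member, had a log2 fold change of 0.10 ± 0.10 SE and was not called.

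Among the antiviral effectors, 3 of 14 tested rose at 6 h, against 8.68% of all genes. ISG15, a ubiquitin-like modifier, measured 56.4, 49.5 and 47.4 CPM with pGFP and 93.8, 95.1 and 95.5 CPM with wild type p53 (log2 fold change 0.89 ± 0.11 SE, adjusted P = 1.0e-06 by edgeR). IFIT3, which binds IFIT1 on viral RNA, measured 68.01, 61.5 and 65.8 CPM with pGFP and 90.7, 102 and 104 CPM with wild type p53. Its adjusted P of 0.028 (edgeR) rose to between 0.0512 and 0.110 when any of these 6 libraries was left out. The exonuclease ISG20 was the third, with a log2 fold change of 0.62 ± 0.20 SE. IFIT1, IFIT2 and IFIT5 were not called, with log2 fold changes of 0.23, 0.15 and −0.14.

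Of the 12 members that are sensors or STING, 2 rose at 6 h, against 8.68% of all genes. With 12 genes this is no result about sensors as a group. STING1, the adaptor that cGAS signals through, measured 5.68, 5.58 and 5.96 CPM with pGFP and 8.20, 8.18 and 9.12 CPM with wild type p53, with no overlap (adjusted P = 0.0080 by edgeR, and 0.0525 without replicate 3 of wild type p53). ZC3HAV1, the antiviral RNA-binding protein ZAP, had a log2 fold change of 0.33 ± 0.10 SE. Without that same library of wild type p53 the number of members called at 6 h fell from 9 to 5. None of the 4 members in the ISG15 and ubiquitin pathway was called.

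**Figure D1:**
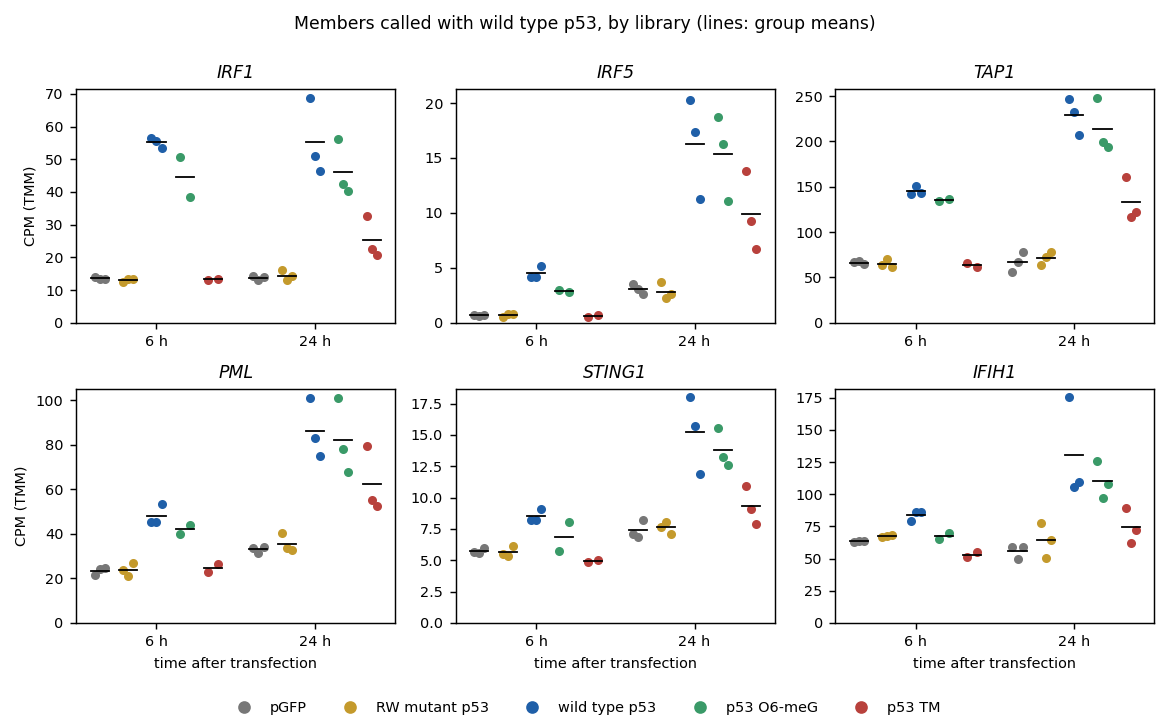
CPM after TMM (y axes, from 0) of 6 members in each grouped library at 6 h and 24 h, coloured by vector or treatment, with group means as lines. pGFP and RW mutant p53 stay together in every panel, for IRF1 between 12.6 and 16.1 CPM, while all wild type p53 libraries lie above them.

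At 24 h the response covered more members, and more of the other genes too: 18 of 43 members were higher than with pGFP and 3 lower, against 20.5% and 14.5% of all genes tested. The median log2 fold change was 0.377 over the members and 0.008 over all genes. Of the members, 8 rose at least 2-fold (9.22% of all genes did): IRF5, IRF1, TAP1, PML, TRIM22, MX1, IFIH1 and STING1. With the replicate number as a block, which the 24 h libraries support, the number called was 27, where 48.4% of all genes were called in either direction. It added B2M, EIF2AK2, IFI44, OASL, RIGI and USP18, all higher, and lost none.

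IRF1 measured 14.2, 13.1 and 13.9 CPM with pGFP and 68.6, 50.9 and 46.5 CPM with wild type p53 at 24 h. Its rise of 4.03-fold was close to that at 6 h, and the difference between the times was −0.01 ± 0.21 (log2, SE). IRF5 measured 3.499, 3.05 and 2.58 CPM with pGFP and 20.3, 17.3 and 11.3 CPM with wild type p53, a rise of 5.36-fold. Its level was higher at 24 h than at 6 h in pGFP itself, by 2.12 ± 0.29 on the log2 scale. IRF2, which competes with IRF1 for its sites, rose by 0.62 ± 0.13 (log2), and IRF3, the factor that sensors activate, fell by 0.41 on the log2 scale (SE 0.08, adjusted P = 0.00041 by edgeR). IRF3 overlaps BCL2L12 on the opposite strand. IRF7, IRF9 and STAT2 were not called.

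TAP1 measured 56.1, 66.8 and 78.2 CPM with pGFP and 247, 232 and 207 CPM with wild type p53 at 24 h, which was 3.41-fold higher. The class I heavy chain gene HLA-B was 1.12-fold higher (adjusted P = 0.019 by edgeR), a call that was lost when any of 7 libraries was left out, with an adjusted P of up to 0.166 without wild type p53 replicate 1. HLA-C and the light chain gene B2M had log2 fold changes of 0.04 and 0.16. TAP1 was the antigen presentation member that rose at least 2-fold.

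All 12 sensors had a log2 fold change above 0 at 24 h, and 5 were called, where 20.5% of all genes were called higher. IFIH1 measured 59.1, 49.8 and 58.9 CPM with pGFP and 175, 106 and 109 CPM with wild type p53 (log2 fold change 1.22 ± 0.16 SE, adjusted P = 8.6e-07 by edgeR). Replicate 1 of wild type p53 stood well above the other 2. STING1 went from 7.05, 6.88 and 8.22 CPM to 17.99, 15.7 and 11.9 CPM, or 2.06-fold. CGAS, which encodes the DNA sensor, went from 57.0, 58.3 and 52.4 CPM to 91.1, 78.4 and 75.2 CPM, or 1.46-fold. For these 3 genes no library of wild type p53 lay as low as any of pGFP. ZC3HAV1 was 1.27-fold higher, and IFI16, a sensor of DNA in the nucleus, 1.99-fold, on 8 to 16 reads with pGFP and 23 to 31 with wild type p53. RIGI and TLR3 were not called, with log2 fold changes of 0.37 and 0.31.

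PML measured 33.8, 31.6 and 34.0 CPM with pGFP and 101, 83.0 and 75.0 CPM with wild type p53 at 24 h, 2.60-fold higher. Of the antiviral effectors, 7 of 14 rose and 1 fell, against 20.5% and 14.5% of all genes. ISG15 was 1.57-fold higher, from 134, 116 and 160 CPM to 214, 211 and 217 CPM. IFIT3 went from 20.4, 20.6 and 31.0 CPM to 59.2, 37.5 and 43.0 CPM, 1.94-fold. IFIT2 and IFIT1 were 1.54-fold and 1.48-fold higher with adjusted P of 0.025 and 0.046 by edgeR, and for IFIT2 the call was lost without wild type p53 replicate 1 or 3 or pGFP replicate 1 or 2 (adjusted P = 0.0887 to 0.153).

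MX1, a dynamin-like antiviral GTPase, measured 2.27, 1.05 and 1.73 CPM with pGFP and 6.51, 2.62 and 2.74 CPM with wild type p53. The call (log2 fold change 1.24 ± 0.41 SE, adjusted P = 0.020 by edgeR) was lost without wild type p53 replicate 1 (0.269) or pGFP replicate 2 (0.108). TRIM22, an antiviral ubiquitin ligase, measured 0.347, 0.114 and 0.0923 CPM against 0.653, 0.411 and 0.358 CPM, on 4 to 13 and 15 to 26 reads. The adjusted P of 0.022 rose to between 0.106 and 0.126 without wild type p53 replicate 1 or pGFP replicate 2 or 3. ISG20 was 1.69-fold higher. IFI27, a mitochondrial interferon-induced protein, fell by 0.88 on the log2 scale, and PARP9, which partners DTX3L in modifying chromatin, fell by 0.54. Reads of PARP9 and DTX3L may be shared, since the genes overlap on opposite strands.

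Markers of other cells moved with wild type p53 at 24 h as well. Of 3 leukocyte markers tested 1 rose, ITGAM, from 4.70 ± 0.513 to 8.10 ± 0.117 CPM (SD, n = 3 each), and it was at 4.64 ± 0.667 CPM with p53 TM. The leukocyte markers summed to between 6.12 and 7.34 CPM with pGFP, 8.89 and 10.3 CPM with wild type p53 and 5.14 and 7.48 CPM with p53 TM, while PTPRC, which defines leukocytes, had a group mean of at most 0.0168 CPM in these groups. Of 4 fibroblast and endothelial markers tested VWF rose, from 0.242 ± 0.0306 to 0.780 ± 0.187 CPM, and COL1A1 fell, from 1.70 ± 0.0988 to 0.588 ± 0.0915 CPM. VWF was at 0.170 ± 0.0284 CPM with p53 TM, and both it and ITGAM were lower there than with wild type p53 (adjusted P = 0.00013 and 0.00024, edgeR). The sum of this list was between 2.71 and 3.23 CPM with pGFP, 2.51 and 2.74 CPM with wild type p53 and 1.48 and 2.87 CPM with p53 TM. Their part in the members' changes was not tested.

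**Figure D2:**
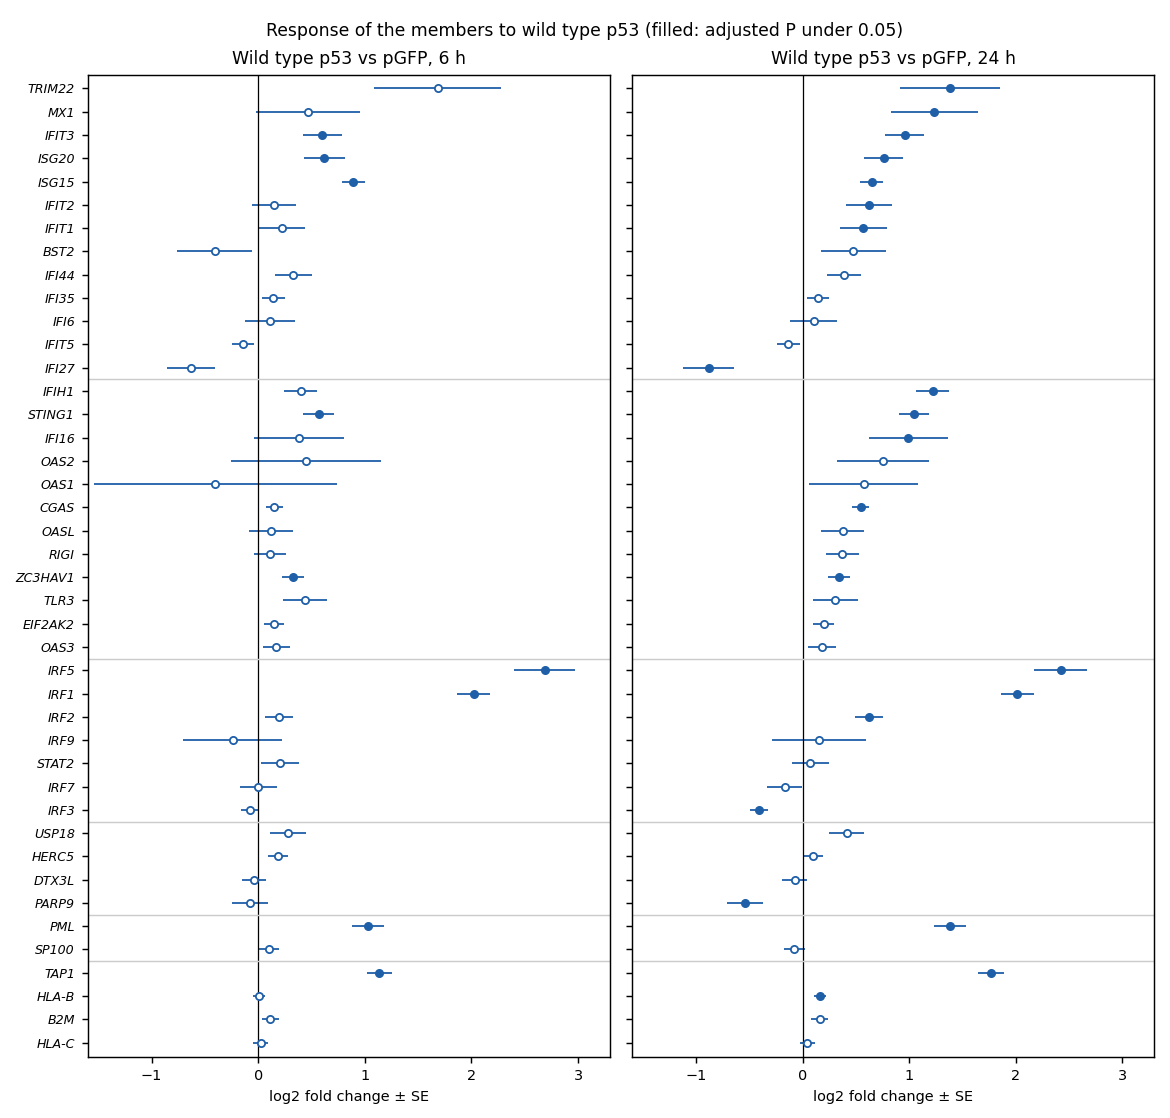
Log2 fold change ± SE (x axes) of wild type p53 against pGFP at 6 h and 24 h for 42 of the 43 members tested, grouped by role with grey lines between the roles (IFI44L, with at most 14 reads, is left out). Filled points have an adjusted P under 0.05, and IRF5, IRF1, TAP1 and PML stand farthest right among them at both times.

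Whether the response itself changed with time was tested as an interaction. Of 43 members, 3 had a larger response to wild type p53 at 24 h than at 6 h and 0 a smaller one, against 3.73% of all genes with a larger one. IFIH1 differed by 0.82 ± 0.22 (log2, SE, adjusted P = 0.024 by edgeR), TAP1 by 0.63 ± 0.17 (adjusted P = 0.020) and CGAS by 0.39 ± 0.11 (adjusted P = 0.039). IFIH1 was at 63.6 ± 0.618 CPM with pGFP and 83.9 ± 4.14 CPM with wild type p53 at 6 h (SD, n = 3 each), and at 55.9 ± 5.30 and 130 ± 39.2 CPM at 24 h. CGAS measured 77.5, 75.4 and 82.4 CPM with pGFP and 90.3, 87.7 and 83.5 CPM with wild type p53 at 6 h. At 24 h CGAS measured 57.0, 58.3 and 52.4 CPM with pGFP and 91.1, 78.4 and 75.2 CPM with wild type p53. Its levels with wild type p53 thus overlapped between the times, while those with pGFP were lower at 24 h. These calls were not firm: the number was 0 without replicate 1 of wild type p53 at 6 h or at 24 h, 1 without pGFP replicate 1 at 24 h or replicate 2 at 6 h, and 5 without wild type p53 replicate 3 at 24 h.

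RW mutant p53 was compared with pGFP to see what p53 protein without normal DNA binding did. None of the 43 members was called at 6 h or 24 h by edgeR or by DESeq2, and 0 and 1 had an unadjusted P under 0.05. Among all genes 1 was called at each time (0.00469%), and it was no member. IRF1 measured 12.6, 13.3 and 13.2 CPM with RW mutant p53 at 6 h and 16.1, 13.0 and 14.2 CPM at 24 h, in or near the range of pGFP at each time. TAP1 measured 63.4, 70.2 and 62.0 CPM at 6 h and 63.5, 72.4 and 78.5 CPM at 24 h, within or just beyond the range of pGFP.

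With p53 O6-meG at 6 h, 5 members were higher than with pGFP and 0 lower (IRF1, TAP1, IRF5, PML and ISG15), against 4.32% of all genes higher. At 24 h 14 were higher and 3 lower, against 18.1% and 11.3%. IRF1 measured 50.6 and 38.6 CPM at 6 h and 56.3, 42.3 and 40.2 CPM at 24 h. TAP1 measured 134 and 137 CPM at 6 h and 248, 199 and 194 CPM at 24 h. Directly against wild type p53 0 members were called at 6 h and 0 at 24 h by edgeR and by DESeq2, with 5 and 1 at an unadjusted P under 0.05, where 0.0% and 0.00937% of all genes were called. A call of 0 in this fit does not show that the vectors acted alike.

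For p53 TM the question was how far these responses fell short of wild type p53. At 6 h 0 of 43 members differed from pGFP by edgeR or DESeq2 (2 at an unadjusted P under 0.05), against 0.202% of all genes. Against wild type p53, 11 were lower and 0 higher, where 8.14% of all genes were lower. IRF1 measured 13.1 and 13.5 CPM with p53 TM, close to pGFP and 0.242-fold of wild type p53 (adjusted P = 1.8e-08 by edgeR). IRF5 measured 0.4999 and 0.665 CPM (0.131-fold of wild type p53), TAP1 66.4 and 61.8 CPM (0.440-fold) and PML 22.7 and 26.2 CPM (0.510-fold).

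The other 7 members lower with p53 TM than with wild type p53 at 6 h were antiviral effectors and sensors. Of these, IFI44, IFIH1, TLR3 and TRIM22 were not called with wild type p53 against pGFP at 6 h, so they had no called response to lose. ISG15 measured 58.5 and 59.5 CPM, just above pGFP and below wild type p53 (0.623-fold). STING1 measured 4.82 and 4.98 CPM, IFIT3 45.6 and 59.9 CPM and IFI44 1.48 and 2.64 CPM, all below every library of pGFP. IFI44 was below every pGFP library with p53 O6-meG at 6 h too, at 2.09 and 2.54 CPM. IFIH1 measured 51.3 and 54.9 CPM, also below pGFP, although its log2 fold change against pGFP (−0.26) was not called. TLR3, an endosomal sensor of double-stranded RNA, measured 1.45 and 1.19 CPM against 2.12, 2.70 and 1.99 CPM with wild type p53. TRIM22 measured 0 and 0.0540 CPM, which allows no fold.

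With 2 libraries of p53 TM at 6 h these calls rested on few data. Without replicate 1 of p53 TM the number was 7, and IFI44, IFIH1, IFIT3, TLR3 and TRIM22 were not called. IFIH1 was also lost without replicate 3 of p53 TM, TLR3 without that library or replicate 1 or 2 of wild type p53, and TRIM22 without replicate 2 or 3 of wild type p53. Placing both libraries of conflicting title by the genotype field left 1 member called, and placing them by the first part of their titles gave 15. The genotype field puts in p53 TM the library with CDKN1A at 251 CPM, where the grouped p53 TM libraries had 66.2 and 58.2 CPM.

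At 24 h p53 TM had 5 members higher and 1 lower than pGFP, against 9.0% and 1.68% of all genes: TAP1, IRF5, PML, IRF1 and ISG15 were higher and IRF3 lower. With the block the number was 14, of which 10 were higher and 4 lower, and 21.7% of all genes were called. Against wild type p53, 12 members were lower and 0 higher, where 11.9% of all genes were lower. With the block 25 were called, 23 lower and 2 higher, against 37.0% of all genes in either direction. Without replicate 1 of wild type p53 the number was 6, and without replicate 2 of p53 TM it was 7.

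IRF1 measured 32.7, 22.5 and 20.6 CPM with p53 TM at 24 h, between pGFP and wild type p53 with no overlap to either (0.456-fold of wild type p53, adjusted P = 9.9e-06 by edgeR). TAP1 lay in between in the same way, at 161, 117 and 122 CPM (0.583-fold). IRF5 measured 13.8, 9.26 and 6.72 CPM and PML 79.5, 55.3 and 52.3 CPM. Both were clear of pGFP but overlapped wild type p53, and both calls against wild type p53 were lost without replicate 1 of wild type p53 (adjusted P = 0.155 for IRF5 and 0.157 for PML, edgeR) or without replicate 2 or 3 of p53 TM. For IRF5 leaving out replicate 2 of wild type p53 did the same (0.0732). Between libraries of the same number, p53 TM was below wild type p53 in 3 of 3 pairs for both genes, and with the replicate block the adjusted P was 6.3e-06 for IRF5 and 2.1e-05 for PML (edgeR).

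Of the 12 sensors 4 were lower than with wild type p53 at 24 h (CGAS, IFIH1, STING1 and OAS3), where 11.9% of all genes were lower. In this fit 0 were called against pGFP, where 9.0% of all genes were higher and 1.68% lower. CGAS measured 58.1, 52.5 and 57.7 CPM with p53 TM at 24 h, level with pGFP (log2 fold change 0.00 ± 0.08 SE) and 0.688-fold of wild type p53. The antiviral effector gene IFI44 measured 5.69, 7.77 and 8.03 CPM against 11.1, 11.4 and 10.9 CPM with wild type p53. IFIH1 measured 89.3, 61.8 and 71.96 CPM, above every pGFP library and below every wild type p53 library. STING1 measured 10.9, 9.05 and 7.92 CPM, of which the lowest lay within pGFP. OAS3, an enzyme that double-stranded RNA activates, measured 38.0, 30.6 and 34.0 CPM against 51.0, 41.9 and 47.6 CPM with wild type p53, and the transcription factor gene IRF2 measured 5.92, 6.98 and 6.15 CPM against 9.65, 8.42 and 7.78 CPM. For both genes the groups did not overlap. Among the antiviral effectors, IFIT3 measured 24.7, 24.6 and 38.9 CPM and MX1 2.06, 1.09 and 1.81 CPM with p53 TM. The calls of IFIT3, MX1, IRF2 and OAS3 were lost when wild type p53 replicate 1 was left out (adjusted P = 0.132, 0.298, 0.132 and 0.0846 by edgeR). Each was also lost without some library of p53 TM: replicate 1 or 2 for IFIT3, 2 or 3 for MX1, 1 or 3 for IRF2 and 2 for OAS3. These losses are of the fit without the block. With the replicate block and all grouped libraries, IFIT3, MX1, IRF2 and OAS3 each stayed called. No library was left out with the block, so whether these calls rest on wild type p53 replicate 1 there was not tested. Against p53 O6-meG without O6-bzG, p53 TM at 24 h had 6 members lower and 0 higher, where 6.58% of all genes were lower, and 13 were called with the block, against 25.3% of all genes in either direction.

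**Figure D3:**
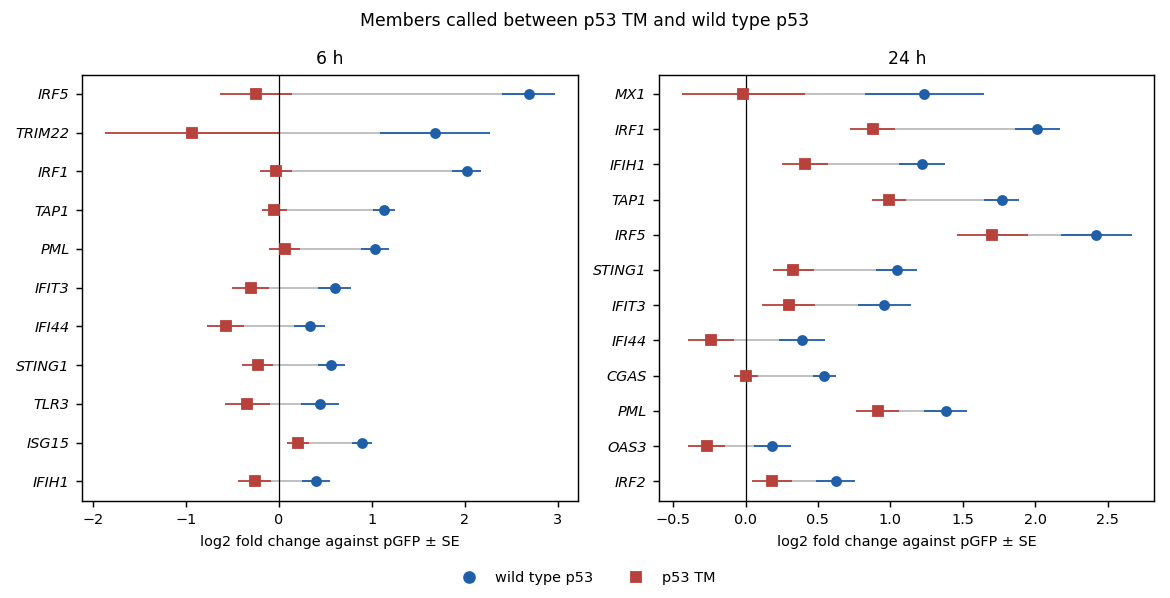
Log2 fold change against pGFP ± SE (x axes) with wild type p53 (circles) and p53 TM (squares) for the members called between them, 11 at 6 h and 12 at 24 h; both values of a gene share the pGFP libraries. At 6 h the squares of IRF1, TAP1 and PML lie at 0, and at 24 h those of IRF1, TAP1, IRF5 and PML lie between 0 and the circles.

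The change from 6 h to 24 h was larger in number than the response to p53 and was present without p53. In pGFP 22 of 43 members were higher and 8 lower at 24 h, against 19.0% and 22.3% of all genes tested. The median log2 change was 0.399 over the members and 0.003 over all genes. In the other vectors 31 members were called with RW mutant p53 (40.1% of all genes), 32 with wild type p53 (46.0%), 28 with p53 O6-meG (43.9%) and 31 with p53 TM (43.6%). Without replicate 1 of p53 TM at 6 h the last number was 20. In all 5, 17 members were called higher (8.45% of all genes were) and 4 lower (13.4%). Different libraries entered each vector, but 24 h libraries of the same number deviated together.

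The IFIT genes fell. IFIT2 measured 117, 108 and 111 CPM in pGFP at 6 h and 26.4, 24.4 and 36.2 CPM at 24 h, a log2 change of −1.95 ± 0.22 SE (adjusted P = 1.9e-07 by edgeR). IFIT3 went from 68.01, 61.5 and 65.8 CPM to 20.4, 20.6 and 31.0 CPM (−1.44 ± 0.18). IFIT1 changed by −1.12 ± 0.22 and IFIT5 by −0.46 ± 0.11. The time points did not overlap in pGFP for any of the 4 genes. IFIT2, IFIT3, IFIT5 and DTX3L were the 4 members lower at 24 h in every vector. IFIT1, IFIT2 and IFIT3 overlap LIPA on the opposite strand.

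Other antiviral effectors rose over the same time. ISG15 went from 56.4, 49.5 and 47.4 CPM to 134, 116 and 160 CPM in pGFP, a log2 change of 1.42 ± 0.11 SE. IFI44 went from 3.18, 2.94 and 3.15 CPM to 8.33, 6.90 and 10.2 CPM (1.45 ± 0.17), and IFI6 and ISG20 changed by 1.56 ± 0.23 and 1.24 ± 0.19. Of the 14 effectors tested 9 rose and 4 fell, against 19.0% and 22.3% of all genes, and the 4 that fell were the IFIT genes. MX1 rose by 1.504 ± 0.46 and TRIM22 by 1.55 ± 0.62, calls that were lost without pGFP replicate 1 at 24 h (adjusted P = 0.0649 and 0.420 by edgeR). For TRIM22 the adjusted P of 0.048 also passed 0.05 without any of 15 other libraries. IFI44L had 0 to 1 reads at 6 h and 2 to 11 at 24 h in pGFP.

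Antigen presentation and factor genes rose too. HLA-C measured 38.1, 36.7 and 41.6 CPM at 6 h and 68.2, 62.9 and 67.98 CPM at 24 h in pGFP, with HLA-B at 112, 102 and 114 CPM and then 160, 162 and 168 CPM. B2M changed by 0.20 ± 0.08 (log2), while TAP1 changed by 0.02 ± 0.12 and was not called. Among the factors IRF5, IRF7, STAT2 and IRF3 rose, and IRF1 changed by 0.02 ± 0.15. IRF1 and TAP1 were thus called with wild type p53 at both times and were not called with time in pGFP.

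The sensors split. CGAS (−0.49 ± 0.08), RIGI (−0.53 ± 0.15) and ZC3HAV1 (−0.48 ± 0.10) fell in pGFP, whereas OAS3 rose by 0.60 ± 0.13 and STING1 by 0.36 ± 0.14, the latter with an adjusted P of 0.046 (edgeR) that passed 0.05 when any of 11 libraries was left out, up to 0.182 without pGFP replicate 3 at 24 h. OAS1 and OAS2, which sense double-stranded RNA, had 0 to 3 and 3 to 5 reads at 6 h and 7 to 13 and 16 to 28 at 24 h. IFIH1 was not called (−0.18 ± 0.16). HERC5, the ligase that attaches ISG15, rose by 0.44 ± 0.09, and DTX3L fell by 0.49 on the log2 scale.

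Markers of other cells also moved with time in pGFP: CD14 (2.44 ± 0.49), COL1A1 (1.98 ± 0.32), PECAM1 (2.41 ± 0.61) and VWF (1.46 ± 0.46) rose on the log2 scale. None of these exceeded 2.004 CPM in any grouped library, and KRT18 fell by 0.82 on the log2 scale. Their part in the change was not tested. Fewer cells that express a gene and less RNA of it per cell cannot be told apart in such bulk libraries.

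**Figure D4:**
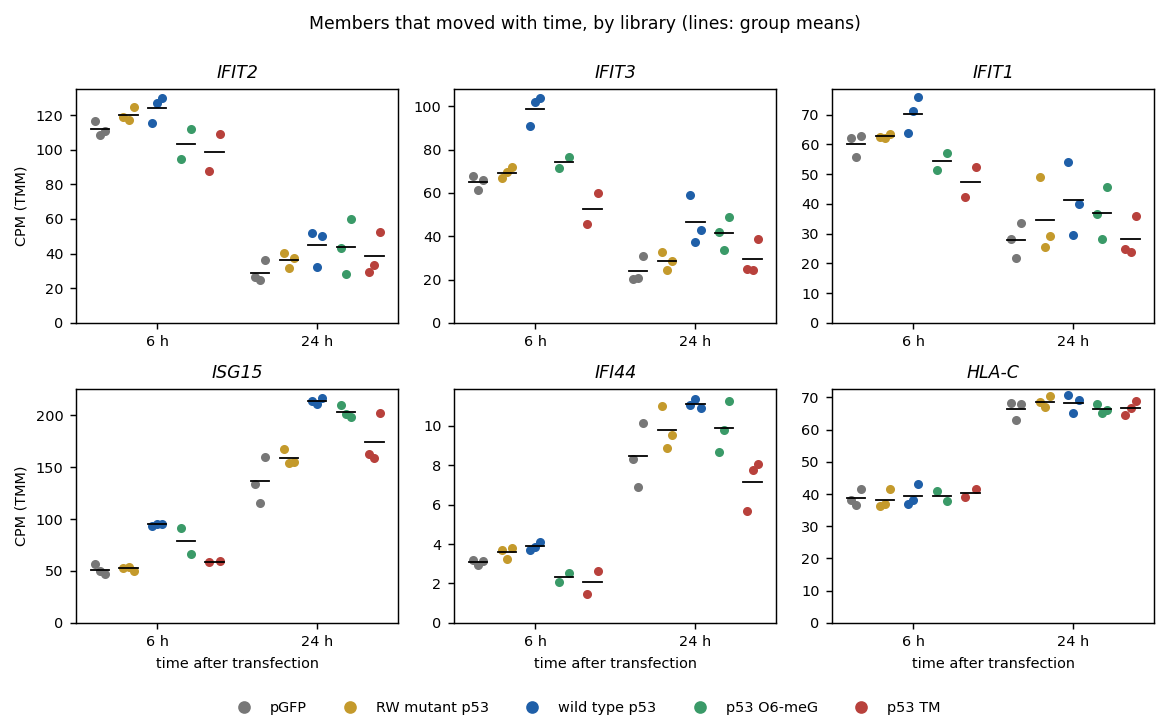
CPM after TMM (y axes, from 0) of 6 members in each grouped library, coloured by vector or treatment, with group means as lines. IFIT2, IFIT3 and IFIT1 are lower and ISG15, IFI44 and HLA-C higher at 24 h than at 6 h in all 5 vectors or treatments, IFIT2 between 24.4 and 60.1 CPM at 24 h.

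Replicate 1 at 24 h stood apart for part of the set. Of the 43 members, 11 were highest in replicate 1 in all 5 vectors (B2M, IFI27, IFIH1, IRF1, IRF5, IRF9, MX1, PARP9, SP100, STAT2 and USP18) and 0 were lowest in it, against 3169 highest and 3439 lowest of 21335 genes. Ordered by the lowest ratio over the 5 vectors, IRF9, the DNA-binding part of the interferon-activated complex, came first at between 1.67 and 3.44 times the mean of replicates 2 and 3. IRF9 measured 3.39, 1.12 and 1.55 CPM with pGFP and 5.28, 1.25 and 1.81 CPM with RW mutant p53. MX1 followed at 1.42 to 3.90 times and STAT2 at 1.29 to 1.58 times. The methods call the replicates biological, and the labels do not say what a number stands for. Without the 5 libraries of replicate 1 at 24 h, the number of members called with wild type p53 at 24 h was 16 in place of 21, and HLA-B and IFIT2 were among those not called.

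**Figure D5:**
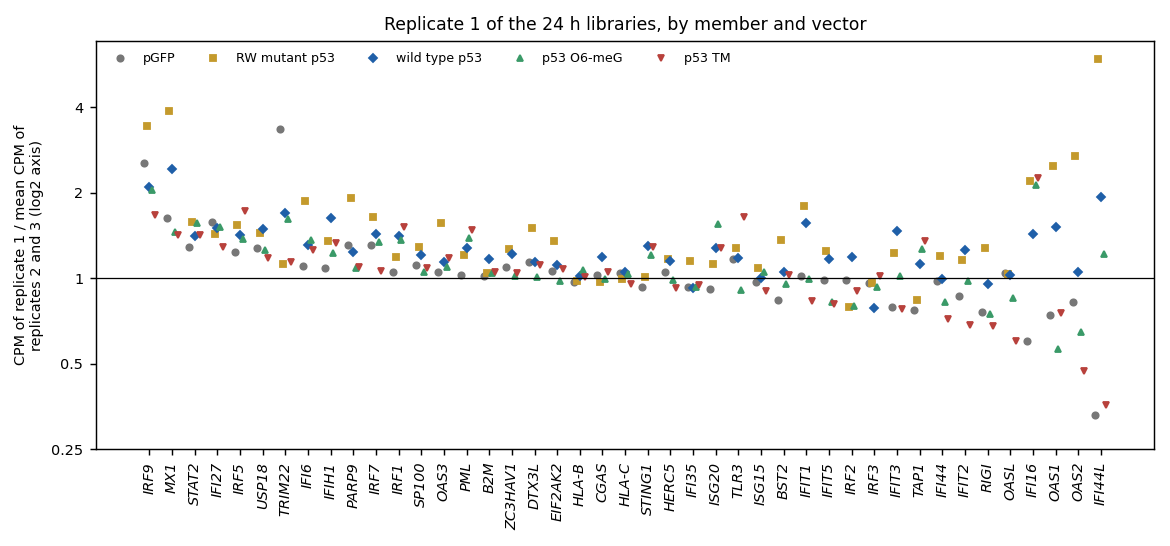
CPM of replicate 1 divided by the mean CPM of replicates 2 and 3 at 24 h (y axis, log2 scale) for each of the 43 members and each vector or treatment, ordered by their lowest ratio. All 5 points of the members at the left, from IRF9 and MX1 on, lie above 1.

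Interferon genes themselves were near the limit of detection. Of 10 in the list, 7 had a row, IFNE reached 0.703 CPM, and the others no more than 0.0593 CPM in any library. IFNE, an interferon of epithelia, was lower at 24 h in pGFP by 1.43 on the log2 scale and was not called with wild type p53. For the lists outside the set, the shares of all genes called at 24 h with wild type p53 (20.5% higher and 14.5% lower) and with time in pGFP (19.0% and 22.3%) are the background. Of 10 interferon receptor and Janus kinase genes, 0 rose and 2 fell with wild type p53 at 24 h: IFNLR1, the receptor chain for interferon lambda, fell by 1.00 and the kinase gene JAK2 by 0.33 on the log2 scale. At 6 h 0 were called, where 8.68% of all genes were higher and 1.59% lower.

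Among 11 sensor adaptors and kinases tested of 15 listed, TBK1, the kinase of IRF3, rose at both times (0.36 ± 0.08 at 6 h and 0.48 ± 0.08 at 24 h, log2, SE). At 24 h TRIM25, the ligase that acts on RIG-I, rose by 0.33 ± 0.06. Of 26 other interferon-stimulated genes tested, 1 rose at 6 h and 5 rose and 5 fell at 24 h, with a median log2 change of 0.015 at 24 h. The shares called were 3.85% higher at 6 h, against 8.68% of all genes (1.59% were lower), and 19.2% in each direction at 24 h, against 20.5% and 14.5%. PARP10 led, from 1.97 ± 0.390 to 5.19 ± 1.38 CPM (SD, n = 3 each). In pGFP 10 of the 26 were higher and 3 lower at 24 h than at 6 h, against 19.0% and 22.3% of all genes.

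Of 11 other antigen presentation genes, 6 rose and 2 fell with wild type p53 at 24 h, against 20.5% and 14.5% of all genes. The peptide trimming gene ERAP2 went from 4.15 ± 0.824 to 16.3 ± 8.80 CPM and the immunoproteasome gene PSMB8 from 21.9 ± 0.873 to 34.3 ± 3.35 CPM (SD, n = 3 each), while HLA-F fell by 0.83 on the log2 scale. Of 10 tested NF-kB genes, 1 rose and 0 fell with wild type p53 at 24 h, against 20.5% and 14.5% of all genes: NFKB1, from 91.9 ± 7.81 to 174 ± 14.9 CPM. With time in pGFP 0 rose and 5 fell, against 19.0% and 22.3% of all genes, among them BIRC3 from 419 ± 30.5 to 99.8 ± 40.7 CPM and RELB from 204 ± 16.2 to 106 ± 11.6 CPM.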

How the data were processed

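RNA from 30 H1299 libraries was sequenced. The deposited values are raw counts of reads for each gene. The authors aligned to hg38 with STAR 2.5.3a and counted on GENCODE v27 genes with featureCounts of Subread 1.5.2, per the labels and the study's methods; the strand setting is not given in the sources used here. The methods describe the libraries as biological triplicates. A deposited normalized table was not used.

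Genes were filtered by filterByExpr, which kept 21335, and normalized by TMM in edgeR 4.0.16 (R 4.3.3). All 28 grouped libraries were fitted together without a block, and 10 groups were compared with the quasi-likelihood test. Benjamini-Hochberg adjustment ran over the whole tested table, and a member was called at an adjusted P under 0.05. Titles of 2 libraries name both p53 O6-meG and p53 TM, and they entered no comparison. Alternatives were DESeq2 1.42.0 or its size factors, other filters, the replicate block (which cannot enter 24 h against 6 h), only the groups compared, both placements of the 2 libraries, and each library left out. Of 39359 gene identifiers, 38904 were matched to coordinates in GENCODE v44.

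Members and lists were chosen with earlier results of these data known. Values in every library are given for members called at least 2-fold with wild type p53, in the interaction or between p53 TM and wild type p53, for the 6 smallest P values of 24 h against 6 h in pGFP and for up to 4 textbook p53 targets; other members named were chosen after their values were seen. Deviations from group means correlated above 0.1 in 30 of 30 same-numbered pairs at 24 h (0.372 to 0.837), so these libraries are paired. At 6 h, in the groups with 3 libraries, 8 of 9 same-numbered pairs did (0.0756 to 0.549, median 0.318). Of pairs with different numbers 2 of 18 did (median −0.187). The 6 h libraries thus also went together by number, less closely, and the 6 h counts without the block leave this out. No library duplicated another of its group (chi-square per degree of freedom 6.09 to 47.4 over 26 pairs). The fits were tested on simulated data with 200 genes changed in wild type p53 at 24 h. By edgeR without the block, 137 were recovered: 35, 28, 30 and 44 of 50 each at 0.5-fold, 1.5-fold, 2-fold and 4-fold. Of the unchanged genes, 6 were called. The simulated libraries were not paired by number, so the test does not cover the pairing. Results of some genes outside the set are not reported here.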

Additional observations from a re-analysis of the deposited data

Results flagged for a closer look

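The response to wild type p53 differed between 6 h and 24 h, by the interaction term of edgeR, for 3 of 43 members. Of all genes, 3.73% had a larger response at 24 h. These calls were not firm: all 3 were lost without replicate 1 of wild type p53 at 6 h or at 24 h. The log2 difference (24 h minus 6 h) was 0.82 for IFIH1, 0.63 for TAP1 and 0.39 for CGAS.

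In the libraries of conflicting title, 4 named members stood at more than 2 times the highest pGFP library at 6 h, all in the library whose title begins with p53 O6-meG and ends with p53 TM. IRF1 was at 52.0 CPM against at most 14.0 CPM in pGFP, IRF5 at 3.85 against at most 0.754 CPM, TAP1 at 143 against at most 67.8 CPM, and TRIM22 at 0.235 against at most 0.0815 CPM. In the library whose title begins with p53 TM, IRF1 was at 13.8 CPM and TAP1 at 64.1 CPM. CDKN1A was at 251 CPM in the former and 50.5 CPM in the latter. In the grouped libraries at 6 h CDKN1A was at 270 and 262 CPM with p53 O6-meG and at 66.2 and 58.2 CPM with p53 TM. The count columns of both libraries are headed as in the first part of their titles.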

How the results depend on the processing

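The number of members called moved by over 1.5 times in these cases. The block also raised calls over all genes: with wild type p53 at 24 h it called 10320 genes, against 4369 higher and 3098 lower without it. Shares of all genes are not given for the block at 6 h or in the interaction, for the placements or with libraries left out. The counts in this section therefore do not set the members apart from other genes. The replicate block gave 16 in place of 9 for wild type p53 against pGFP at 6 h, 9 in place of 5 for p53 O6-meG against pGFP at 6 h, 19 in place of 11 for p53 TM against wild type p53 at 6 h, 4 in place of 0 for p53 O6-meG against wild type p53 at 6 h, 14 in place of 6 for p53 TM against pGFP at 24 h, 25 in place of 12 for p53 TM against wild type p53 at 24 h, 13 in place of 6 for p53 TM against p53 O6-meG at 24 h, and 7 in place of 3 for the interaction. Placing the 2 libraries by the genotype field gave 0 for p53 O6-meG against pGFP at 6 h, 1 for p53 TM against wild type p53 at 6 h, 3 for p53 TM against p53 O6-meG at 24 h and 1 for the interaction. A fit of only the groups compared gave 6 for p53 TM against wild type p53 and 1 for p53 TM against p53 O6-meG at 24 h, where DESeq2 gave 11. Leaving out the 5 libraries numbered 1 at 24 h, an alternative chosen after seeing the data, gave 11 there and 1 for p53 O6-meG against wild type p53 at 6 h.

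Leaving out each library in turn gave 5 to 10 (wild type p53, 6 h), 14 to 24 (wild type p53, 24 h), 5 to 6 and 13 to 18 (p53 O6-meG, 6 h and 24 h), 4 to 7 (p53 TM, 24 h), 7 to 11 and 6 to 14 (p53 TM against wild type p53, 6 h and 24 h), 4 to 9 (p53 TM against p53 O6-meG, 24 h), 24 to 31 (pGFP over time), 20 to 32 (p53 TM over time) and 0 to 5 (interaction). RW mutant p53 had 0 throughout. Of 60 called values of the named members, 29 stayed called under every one of up to 37 settings and 0 changed direction. Placing the 2 libraries by the genotype field by itself lost 19 of the 60, and placing them by the first part of the title lost 0. Libraries were left out in the fit without the block. With the replicate block and all grouped libraries, 47 of the 47 called values that it can enter stayed called. No library was left out with the block, so this does not show whether a call rests on 1 library. The causes were not tested. Arms left with 1 library were assumed to vary like the others. TRIM22, IFI16, IFI44L, OAS1 and OAS2 rest on few reads.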
